A study of Oryza sativa Japonica Group with 6 samples.

Results

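The miR172 family accounted for 3 of the 486 miRNAs listed for rice anthers in either ploidy. The members were found by name, as every listed miRNA called miR172 or MIR172, and were osa-miR172a, osa-miR172b and osa-miR172d-5p_R+1. All 3 were listed for the diploid and for the autotetraploid.

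The anthers came from Taichung65-2x, a diploid japonica rice, and from Taichung65-4x, the autotetraploid obtained from it by colchicine and then kept by selfing. Anthers were taken before meiosis, in its interphase (PMA), during meiosis (MA) and once single microspores had formed (SCP). In Taichung65-2x the florets measured 2.50–3.00 mm at PMA, 3.80–4.30 mm at MA and 5.50–6.00 mm at SCP, with anthers of 0.75–0.85, 1.00–1.35 and 1.40–1.55 mm. In Taichung65-4x they measured 3.50–4.00, 4.80–5.30 and 6.50–7.00 mm, with anthers of 0.90–1.40, 1.45–1.95 and 1.50–2.05 mm. Each of the 6 groups had 1 small RNA library and no replicates, and the tetraploid was 1 line, so every comparison is between 2 libraries and not between conditions. Whole anthers hold the meiocytes or microspores together with the anther wall. In such bulk tissue, fewer cells that carry a miRNA and less of it per cell cannot be told apart.

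miR172 is an ancient plant miRNA that restrains AP2-like transcription factors, by cleaving their mRNAs and by blocking their translation. It acts late in the phase-change pathway, where it follows miR156, the miRNA that restrains SPL transcription factors. In cereals it is best known for shaping spikelets and florets through AP2-like genes. The mRNA targets were not measured in these libraries.

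The detected sequences are shown from 5′ to 3′ in DNA letters as deposited, with the seed (bases 2 to 8) in capitals. The arm a member comes from and the single base that parts the mature members carry the comparisons that follow.
osa-miR172a: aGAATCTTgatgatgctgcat
osa-miR172b: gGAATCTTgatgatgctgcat
osa-miR172d-5p_R+1: gCAGCACCatcaagattcaca

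osa-miR172a and osa-miR172b come from the 3p arm, which gives the functional miR172, and both match their miRBase entries exactly. They are 21 nt long and share 20 positions and the seed. The only substitution is A1G, counted from 1 at the 5′ end with the base of osa-miR172a first. No other listed miRNA held that seed (2 of 486 did), and the closest non-member still had 9 mismatches to a mature member. osa-miR172d-5p_R+1 is the 5p product of the miR172d hairpin, also 21 nt long, with 1 base more at its 3′ end than the miRBase entry. Its seed was found in no other listed miRNA. Aligned to either mature sequence by letters alone, it made 17 Watson-Crick pairs, with 2 bases overhanging at the 3′ end of each strand. The 2 positions that did not pair were its bases 7 and 19, which face bases 13 and 1 of the mature strand. The base that differs between osa-miR172a and osa-miR172b is therefore unpaired in both.

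Levels are the normalized signal of the deposited tables, in which copy numbers were multiplied by 1 factor per library. A single read was worth between 0.797 (SCP-4x) and 1.36 (PMA-4x), and the listed miRNAs of a library summed to between 61725 and 129895 in signal. The reproductive families miR2118 and miR2275, which trigger the phased small RNAs of grass anthers, made up 22.2% to 40.5% of the listed signal in the 6 libraries. A miRNA was called higher or lower in a comparison when the larger value exceeded 10 and the fold exceeded 2. Folds of miRNAs outside the family are given without intervals. A member's fold in the deposited signal is followed by its 95% interval of counting error where both values were whole numbers of reads. For summed members the interval rests on the rounded reads. Such intervals hold no biological variation, and reads copied by PCR are not independent molecules.

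osa-miR172a of Taichung65-2x stood at 17.5 at PMA, 45.8 at MA and 144.8 at SCP. In Taichung65-4x it stood at 12.2, 29.0 and 89.1. The level was highest at SCP and lowest at PMA in both ploidies, and at each stage the diploid library was the higher. At PMA these values rest on 13 and 9 reads.

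osa-miR172b stood at 35.0, 40.6 and 154.6 in Taichung65-2x at the same stages. In Taichung65-4x it stood at 53.0, 53.4 and 103.4. The PMA and MA libraries lay close together in each ploidy and the SCP libraries lay above them. The tetraploid was the higher at PMA and MA, and the diploid at SCP.

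osa-miR172d-5p_R+1, the 5p strand, stood at 20.2, 43.4 and 82.6 in Taichung65-2x. In Taichung65-4x it stood at 13.6, 25.4 and 29.5. The diploid library was the higher at each stage, and the gap was widest at SCP.

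**Figure D1:**
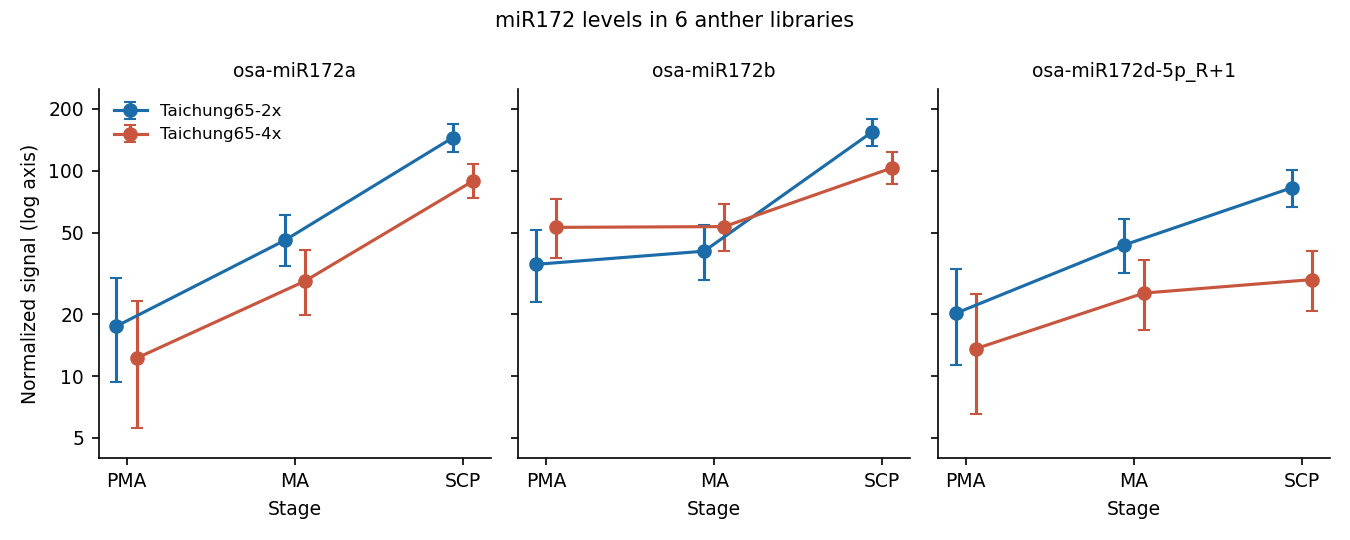
Normalized signal (log axis) of the 3 miR172 miRNAs at PMA, MA and SCP in Taichung65-2x (blue) and Taichung65-4x (red), 1 library per point, with 95% Poisson intervals of the rounded reads as bars. osa-miR172a climbs from 17.5 to 144.8 in the diploid, while osa-miR172d-5p_R+1 reaches 82.6 in the diploid and 29.5 in the tetraploid at SCP.

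Summed, the mature members of the diploid stood at 52.5, 86.3 and 299.4, and those of the tetraploid at 65.2, 82.4 and 192.5. Ordered by that sum, SCP-2x lay above SCP-4x (1.56-fold, 1.32–1.85) and SCP-4x above MA-2x (2.23-fold, 1.75–2.88). The remaining neighbours did not differ beyond counting error, with MA-2x at 1.05-fold of MA-4x (0.77–1.41), MA-4x at 1.26-fold of PMA-4x (0.88–1.83) and PMA-4x at 1.24-fold of PMA-2x (0.80–1.95). Within a library, osa-miR172b exceeded osa-miR172a in 5 of 6 libraries, MA-2x being the exception.

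The position of the members among the 357 miRNAs listed for both ploidies does not depend on the scaling of the libraries. osa-miR172a of the diploid moved from place 253 at PMA to 168 at MA and 81 at SCP, and that of the tetraploid from 292 to 189 and 95. osa-miR172b moved from 199 to 178 and 75 in the diploid, and from 171 to 148 and 81 in the tetraploid. The 5p strand moved from 237 to 170 and 105, and from 281 to 200 and 169. Each member thus stood nearer the top at each later stage in both ploidies.

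In the diploid, osa-miR172a rose 2.61-fold and osa-miR172d-5p_R+1 rose 2.15-fold (1.18–4.14) between PMA and MA. osa-miR172b differed by 1.16-fold (0.70–1.96) and was not called. These are 2 of 3 members higher and 0 lower, where 5.54% of the 379 miRNAs tested were called higher and 22.2% lower. The median log2 ratio was 1.10 for the members and −0.38 for all tested miRNAs.

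From MA to SCP in the diploid, osa-miR172b rose 3.81-fold (2.71–5.45) and osa-miR172a 3.16-fold. The 5p strand, at 1.90-fold (1.32–2.77), missed the call, which it passed under each of the 3 other scalings (2.62-fold to 3.48-fold). Again 2 of 3 members were higher and 0 lower, beside 8.17% higher and 37.2% lower among the 355 tested, and the median log2 ratio was 1.66 against −0.67. Both steps of a ploidy share its MA library, so they are not independent of each other. The summed mature level rose 3.47-fold (2.76–4.44) at this step, after 1.64-fold (1.11–2.44) at the step before, which was not called.

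In the tetraploid, osa-miR172a rose 2.37-fold (1.11–5.65) between PMA and MA. The 5p strand differed by 1.87-fold (0.88–4.31) and osa-miR172b by 1.01-fold (0.66–1.55), and neither was called. This is 1 of 3 members higher and 0 lower, where 10.3% of the 397 tested were higher and 29.2% lower, with medians of 0.90 for the members and −0.58 for all. Under each of the 3 other scalings the 5p strand was called too.

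From MA to SCP in the tetraploid, osa-miR172a rose 3.07-fold. osa-miR172b stood at 1.93-fold and the 5p strand at 1.16-fold (0.69–1.97), both below the call. This is 1 of 3 higher and 0 lower, beside 9.23% higher and 21.3% lower among the 390 tested, with medians of 0.95 and −0.31. The summed mature level rose 2.33-fold (1.82–3.00). Under each of the 3 other scalings osa-miR172b was called as well.

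The whole course from PMA to SCP was compared after the values had been seen. In the diploid osa-miR172a rose 8.27-fold (4.70–15.9), osa-miR172b 4.42-fold (2.91–6.95) and the 5p strand 4.09-fold (2.36–7.60). In the tetraploid osa-miR172a rose 7.28-fold and the 5p strand 2.17-fold (1.06–4.90), while osa-miR172b stood at 1.95-fold, below the call. With equal sums, the median ratio or clean reads osa-miR172b reached 4.10-fold, 3.96-fold and 4.47-fold, and all 3 members were called. The ratio of osa-miR172a was the larger in the diploid as deposited, with the median ratio (16.4-fold against 14.8-fold) and per clean read (19.7-fold against 16.7-fold). With equal sums alone it was the larger in the tetraploid (15.3-fold against 13.9-fold). Among all tested miRNAs, 12.9% were higher and 51.2% lower in the diploid, and 15.4% and 46.1% in the tetraploid. The median log2 ratios of the members were 2.14 and 1.12, beside −1.03 and −0.72 for all tested miRNAs and −1.16 and −1.75 for those of 21 nt, the members' own length. The summed mature level rose 5.70-fold (4.08–8.16) in the diploid and 2.95-fold (2.15–4.11) in the tetraploid.

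**Figure D2:**
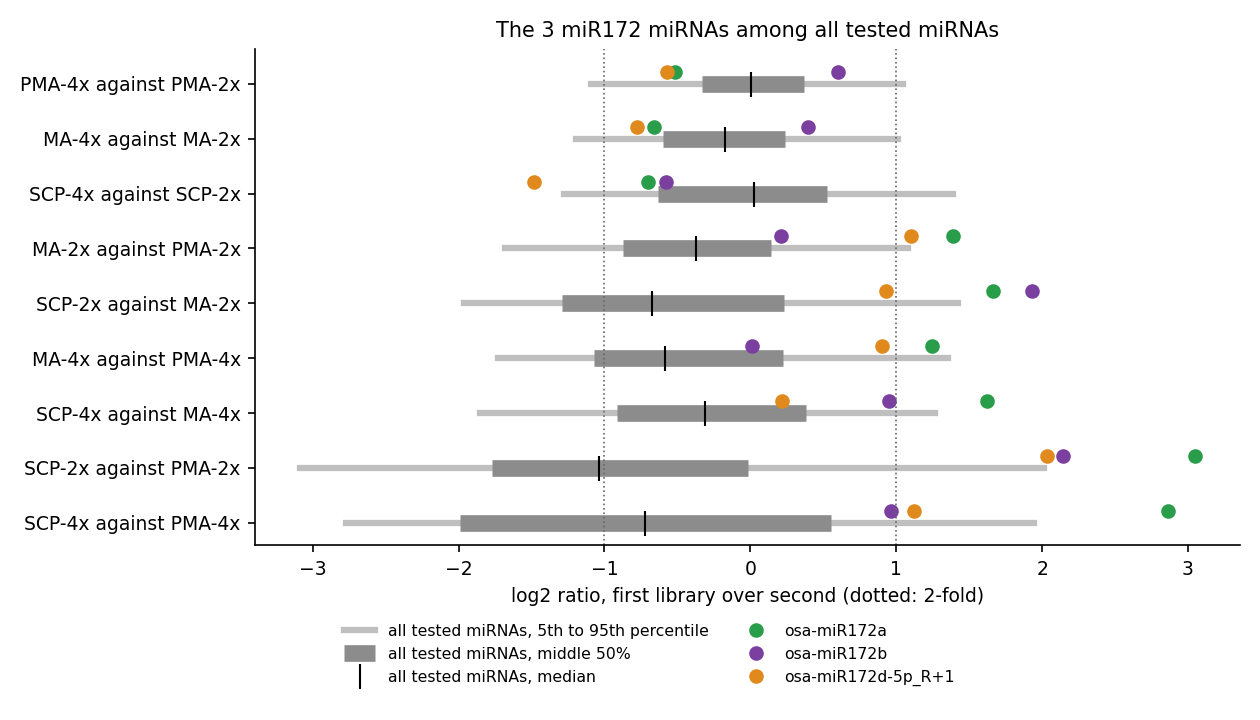
log2 ratio of the first library named over the second for the 3 miR172 miRNAs (coloured points), with the 5th to 95th percentile (light bar), the middle 50% (dark bar) and the median (tick) of all tested miRNAs, and 2-fold as dotted lines. In the 6 stage comparisons each member lies to the right of the median, with osa-miR172a at a log2 ratio of 3.05 for SCP-2x against PMA-2x, and in the 3 ploidy comparisons the only member past 2-fold is osa-miR172d-5p_R+1 at SCP, at −1.49.

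Relative to all listed miRNAs the family gained ground in both ploidies. Of the signal listed for the diploid it held 0.0560% at PMA, 0.122% at MA and 0.493% at SCP. The tetraploid values were 0.0608%, 0.124% and 0.360%. The shares of the ploidies were close at PMA and MA and parted at SCP. Equal sums, the median ratio and reads per clean read all raised the stage ratios, by 0.28 to 1.25 log2, so that none of the stage calls above was lost under them. Within a comparison each of these scalings moves every miRNA by the same amount. The calls gained under them stand without the share of all tested miRNAs, which was counted for the deposited values only.

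Between the ploidies at PMA, no member was called, where 5.54% of the 397 tested miRNAs were higher in Taichung65-4x and 5.54% lower. osa-miR172b was 1.51-fold higher in the tetraploid library (0.90–2.59), while osa-miR172a was 1.43-fold lower (0.57–3.79) and the 5p strand 1.49-fold lower (0.62–3.70). All 3 intervals include 1-fold. The median log2 ratio was −0.52 for the members and 0.00 for all tested miRNAs.

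At MA again no member was called, beside 5.26% higher and 9.21% lower of the 380 tested. The 5p strand was 1.71-fold lower in the tetraploid library, with a counting interval clear of 1-fold (1.05–2.84). osa-miR172a was 1.58-fold lower and osa-miR172b 1.32-fold higher (0.87–2.00). The median log2 ratio of the members was −0.66, beside −0.18 for all tested miRNAs and −0.47 for those of 21 nt. The summed mature level had a log2 ratio of −0.07, and its sign turned under the other scalings (0.23 for equal sums, 0.23 for the median ratio and 0.25 for clean reads).

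At SCP, osa-miR172d-5p_R+1 fell 2.80-fold in the tetraploid (1.89–4.22), from 82.6 to 29.5. This is 1 of 3 members lower and 0 higher, where 10.2% of the 382 tested were lower and 13.4% higher. Of the 184 tested miRNAs of 21 nt, the members' own length, 33 were lower and 4 higher. osa-miR172a was 1.63-fold lower and osa-miR172b 1.49-fold lower, neither of them called. The medians were −0.70 for the members, 0.02 for all tested miRNAs and −0.43 for the 21 nt class. The call on the 5p strand held at 2.23-fold with equal sums, 2.71-fold with the median ratio and 2.72-fold per clean read. The summed mature level was 1.56-fold lower (1.32–1.85), a log2 ratio of −0.64 that shrank to −0.31 under equal sums.

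**Figure D3:**
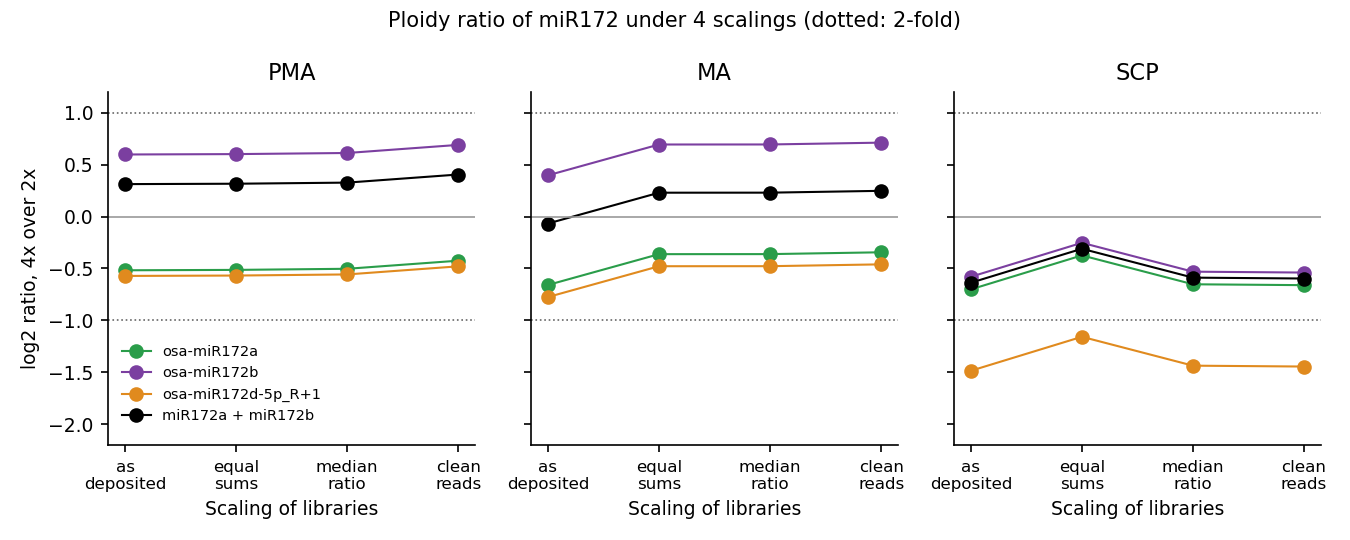
log2 ratio of Taichung65-4x over Taichung65-2x at each stage for the 3 miR172 miRNAs and the sum of the mature members (black), with the libraries as deposited and under 3 other scalings, and 2-fold as dotted lines. osa-miR172b lies above 0 at PMA and MA and below 0 at SCP under all 4, and the 5p strand passes 2-fold only at SCP.

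The balance between the members can be read within each library, where no scaling enters. The 5p strand made up 27.8% of all miR172 reads at PMA-2x (95% exact binomial interval 16.5–41.6), 33.5% at MA-2x (25.7–42.1) and 21.6% at SCP-2x (17.8–25.8). In the tetraploid it made up 17.2% (8.59–29.4), 23.5% (16.2–32.2) and 13.3% (9.55–17.9). The share was lower in the tetraploid library at each stage, and in both ploidies it was highest at MA and lowest at SCP.

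As an odds ratio of tetraploid over diploid, 5p against mature reads stood at 0.54 at PMA (0.20–1.46), 0.61 at MA (0.34–1.09) and 0.56 at SCP (0.36–0.86). The 3 values lie close together, and the SCP value alone has a counting interval clear of 1.

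Between the mature members, osa-miR172a made up 33.3% of the reads at PMA-2x (19.1–50.2), 53.0% at MA-2x (42.6–63.7) and 48.4% at SCP-2x (42.9–53.8). In the tetraploid it made up 18.8% (8.95–32.6), 35.2% (25.4–45.9) and 46.3% (39.9–52.8). The odds ratios of tetraploid over diploid were 0.46 at PMA (0.15–1.37), 0.48 at MA (0.25–0.90) and 0.92 at SCP (0.65–1.30). The tetraploid libraries thus held relatively less osa-miR172a than the diploid at MA beyond counting error, and at SCP the members were near an even balance in both ploidies. Since the sequences differ at their first base alone and reads were matched with 1 mismatch and variable ends allowed, reads may have been shared between them. The part of such sharing in these shares was not tested, and 3 of the 12 values of the mature members are not whole numbers of reads.

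**Figure D4:**
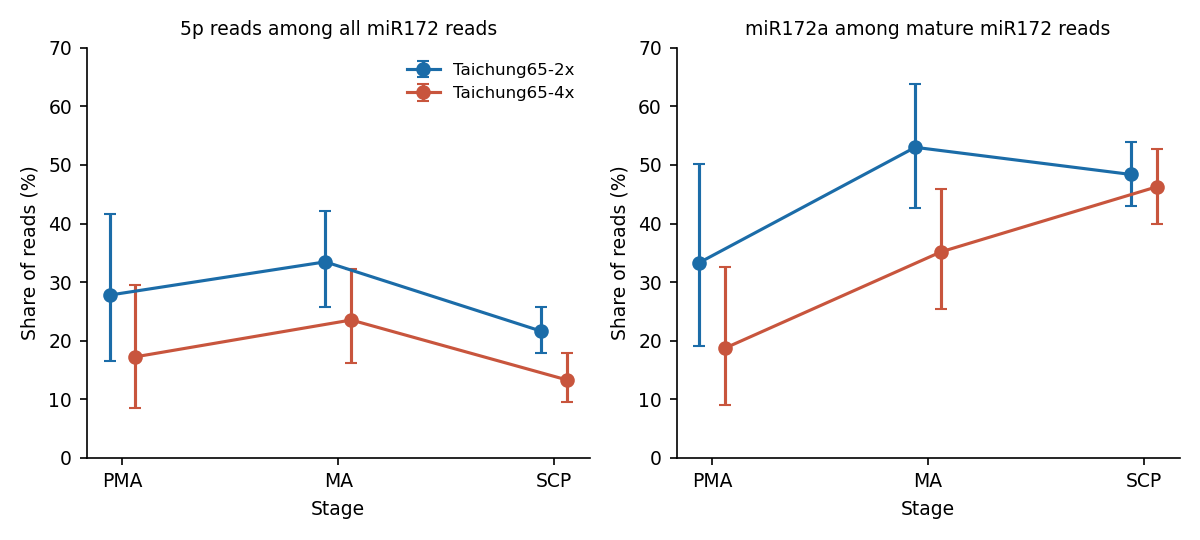
Left, share of 5p reads among all miR172 reads, and right, share of osa-miR172a among the reads of the mature members, at PMA, MA and SCP in Taichung65-2x (blue) and Taichung65-4x (red), in percent with 95% exact binomial intervals as bars. The 5p share of the tetraploid lies below that of the diploid at each stage (13.3% against 21.6% at SCP), while the osa-miR172a share is 46.3% and 48.4% at SCP.

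The other phase-change families, miR156 and miR529, which target SPL genes, and the miR156-like miR535, had 12 listed miRNAs, and none named miR157 was listed. The list was taken by family number. From PMA to SCP, 7 of the 12 tested in Taichung65-2x were higher and 0 lower, and in Taichung65-4x 3 of the 10 tested were higher and 3 lower. Among all tested miRNAs these shares were 12.9% higher and 51.2% lower in the diploid, and 15.4% and 46.1% in the tetraploid. Some of the diploid calls passed the limit of 10 at SCP alone and could not have been called lower. osa-miR156l-5p_R-1 did so, at 4.04 at PMA and 10.7 at SCP. Those that went from 2.02 at PMA to 11.1 and 10.2 at SCP were not listed for the tetraploid. The counts of the ploidies are thus not over the same miRNAs. In the tetraploid some calls also passed the limit in 1 library alone, in either direction. By step, 1 was higher and 0 lower of 9 from PMA to MA in the diploid (5.54% and 22.2% among all tested), and 4 and 1 of 12 from MA to SCP (8.17% and 37.2%). In the tetraploid 3 were higher and 1 lower of 10 at the first step (10.3% and 29.2% among all tested), and 0 higher and 2 lower of 8 at the second (9.23% and 21.3%). Some step calls also passed the limit in their higher library alone and could not have gone the other way. Examples are osa-MIR156d-p3 from MA to SCP in the diploid (6.61 to 27.5) and osa-miR535-3p from PMA to MA in the tetraploid (4.08 to 10.9). The 1 lower call at that tetraploid step, osa-miR156l-5p_R-1, was another (10.9 to 4.62).

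osa-miR156a, a mature miR156, of the diploid stood at 40.1, 170.9 and 267.9, and that of the tetraploid at 62.1, 103.0 and 138.8. Like the mature miR172 sum, it was highest at SCP and lowest at PMA in both ploidies. It rose 6.68-fold from PMA to SCP in the diploid and 2.24-fold in the tetraploid. The much scarcer osa-miR156l-5p_R-1 went from 4.04 to 10.7 in the diploid, but from 10.9 down to 3.19 in the tetraploid. osa-miR535-5p stood at 110.4, 110.4 and 304.7 in the diploid and at 160.3, 95.1 and 172.3 in the tetraploid. osa-MIR529a-p5, the most abundant miRNA of the list, stood at 1106, 1423 and 1740 in the diploid and at 1107, 1324 and 974 in the tetraploid.

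Between the ploidies, 1 of 9 tested miRNAs of this list was higher in the tetraploid and 0 lower at PMA, 1 of 9 higher and 0 lower at MA, and 0 higher and 1 of 12 lower at SCP. Among all tested miRNAs the shares higher and lower were 5.54% and 5.54% at PMA, 5.26% and 9.21% at MA, and 13.4% and 10.2% at SCP. osa-miR156l-5p_R-1 was 2.69-fold higher at PMA (10.9 against 4.04) and 3.34-fold lower at SCP (3.19 against 10.7). osa-MIR156d-p3, from the 3p arm of a miR156 hairpin, was 2.06-fold higher at MA (13.6 against 6.61). Both are at the low end of what was listed. Each of these calls passed the limit of 10 in its higher library alone, so it could not have been called in the other direction. The median log2 ratio of the list was 0.29 at PMA, −0.12 at MA and −0.70 at SCP. The SCP count and median include sbi-miR156a_R+1 and bdi-miR156b-5p_R+1, which were unlisted for the tetraploid and set there at 10. Beside 11.1 and 10.2 in the diploid, their log2 ratios of −0.15 and −0.03 follow from that setting. The median of the miR172 members, the 5p strand among them, was −0.52, −0.66 and −0.70. It lay apart from that of the list at PMA and MA, but at PMA every member's counting interval included 1-fold. For all tested miRNAs the median was 0.00, −0.18 and 0.02, and for those of 21 nt 0.07, −0.47 and −0.43. The summed mature miR172, a ratio of sums and not a median, had 0.31, −0.07 and −0.64. By that measure miR172 lay close to the median of the list at each stage.

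The courses nearest to the summed mature miR172 over the 6 libraries were sought among 197 miRNAs listed for both ploidies with at least 50 in the highest library, as the root mean square distance between log2(value + 1) courses centred on their means. The nearest was osa-miR396e-5p (distance 0.35 log2), whose family restrains growth-regulating factor genes. It was followed by osa-miR167d-5p_R-1 (0.40), of a family that restrains auxin response factors, osa-MIR167j-p3 (0.42), the 3p product of a miR167 hairpin, osa-miR164a (0.44), of a family that restrains NAC genes, and osa-miR156a (0.49). The median distance of all 197 was 1.53. Each of the 5 was highest at SCP in both ploidies, as was the course they were picked to be near. osa-miR396e-5p was much the more abundant, at 1221, 2093 and 4417 in the diploid and 1200, 1412 and 2280 in the tetraploid. The points share their 6 libraries and their scaling, so the distances are a description.

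**Figure D5:**
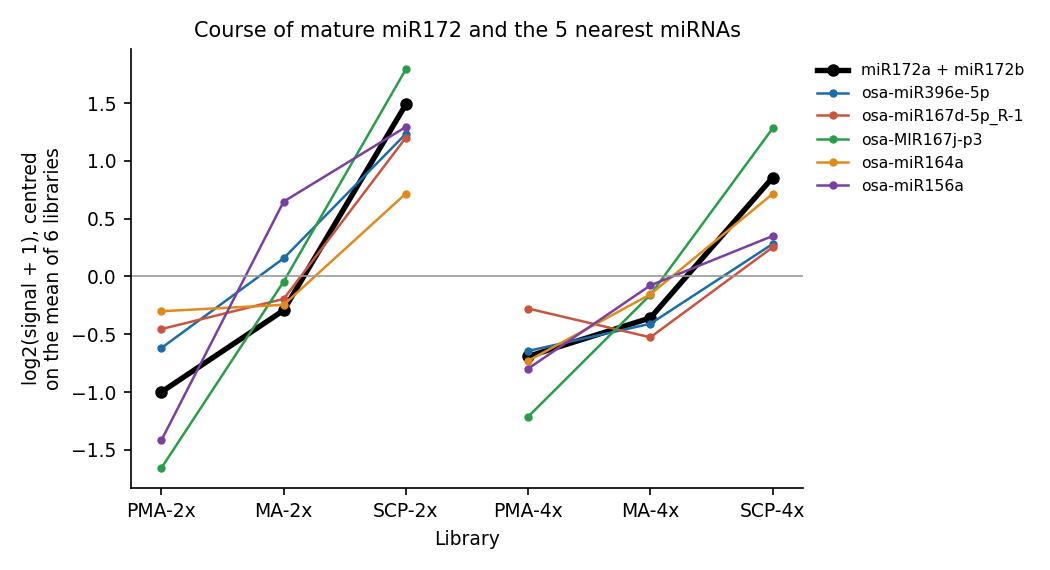
log2(signal + 1) of the summed mature miR172 (black) and of the 5 miRNAs with the nearest courses, each centred on its mean over the 6 libraries, in stage order for Taichung65-2x and then Taichung65-4x. The miR172 sum reaches 1.49 at SCP-2x and 0.85 at SCP-4x. All 6 courses peak at SCP within each ploidy, the 5 having been picked for nearness to the miR172 sum.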

How the data were processed

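Small RNAs of anthers were sequenced in 6 libraries, 1 per group. Per the paper's methods, the authors filtered reads with the Illumina pipeline (Solexa 0.3) and ACGT101-miR, matched sequences of 18 to 25 nt to miRBase 20.0 precursors by BLAST (1 mismatch and variable ends allowed) and to the rice genome, and folded hairpins with RNAfold. Their build of the genome was not given in the sources used here. The deposited signal is the copy number multiplied by 1 factor per library, from a regression on common sequences. Each table lists miRNAs over 10 in at least 1 stage of its ploidy.

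Samples were grouped by the ploidy and stage labels. The worth of 1 read was found in each library as the largest step that left most values whole (tolerance 0.01), which held for 72.3% to 76.1% of values, so no count model was fitted across miRNAs, and an exact binomial test on reads served only as an alternative. The listed miRNAs came to between 77399 and 113099 reads per library. A call needed a value over 10 and a fold over 2, the study's rule without its chi-square or Fisher test. With 1 library per group no p-value or SD is given. A miRNA unlisted for a ploidy was set at 10 in ploidy comparisons and a listed 0 at 0.01. Intervals are exact binomial (95%). Comparisons ran across all listed miRNAs in Python 3.11.15 with SciPy 1.17.1, and the scripts were tested on simulated data. Alternatives were 3 other scalings (equal sums, median ratio, reads per clean read stated by the study), other limits, folds, pseudocounts and treatments of unlisted miRNAs, and an exact binomial test on reads.

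All miR172 miRNAs are named. Of the other phase-change families, the most abundant of each and those called between ploidies are named, and the 5 miRNAs nearest in course. Members and lists were chosen with earlier results of these data known. The PMA to SCP comparisons and the shares within a library were chosen after the values were seen. Genome positions of the miRNAs were not analysed here.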

Additional observations from a re-analysis of the deposited data

Results flagged for a closer look

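The sign of the ploidy ratio differed between stages for osa-miR172b and for the summed mature members, with the PMA and MA ratios within counting error. osa-miR172b had a log2 ratio of tetraploid over diploid of 0.60 at PMA, 0.40 at MA and −0.58 at SCP, a change of −1.18 from PMA to SCP. The summed mature members had 0.31, −0.07 and −0.64, a change of −0.95. As folds, the counting intervals of osa-miR172b were 0.90–2.59 at PMA and 0.87–2.00 at MA. Those of the sum were 0.80–1.95 and 0.71–1.30, so all of these include 1-fold. The ratio of the sum at MA was above 0 under the other scalings (0.23 to 0.25). With 1 library per group the difference between stages was not tested. No single ratio of osa-miR172b reached 2-fold.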

How the results depend on the processing

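No paired analysis was possible because the groups hold no replicates whose numbers could pair them, and the ratios of stage-matched libraries stand 1 by 1. Direction of the stage ratios of the summed mature miR172 was the same under every alternative run, but most of these could not have turned it. The 3 other scalings raised every stage ratio, and a pseudocount cannot change a sign. Adding the 5p strand to the sum could have turned the direction and did not. For SCP-2x against MA-2x the log2 ratio grew to 2.26 with equal sums, 2.50 with the median ratio and 2.67 per clean read. In the same order it became 0.91, 0.90 and 0.94 for MA-4x against PMA-4x, 1.72, 1.68 and 1.82 for SCP-4x against MA-4x, 3.26, 3.50 and 3.76 for SCP-2x against PMA-2x, and 2.63, 2.58 and 2.76 for SCP-4x against PMA-4x. For SCP-4x against SCP-2x equal sums gave −0.31. The number of members called became 2 under each of these 3 scalings for MA-4x against PMA-4x and for SCP-4x against MA-4x, and 3 for SCP-2x against MA-2x and SCP-4x against PMA-4x. With a fold over 1.5 it became 1 for PMA-4x against PMA-2x, and 2 for MA-4x against MA-2x, SCP-4x against SCP-2x, MA-4x against PMA-4x and SCP-4x against MA-4x. With a fold over 4 it became 0 for SCP-4x against SCP-2x and for the 4 steps between successive stages, and 1 for SCP-4x against PMA-4x. The share of all tested miRNAs called was not counted under these scalings and folds. Other limits, pseudocounts and the exact binomial test moved no count of members by over 1.5 times and no sum beyond its counting interval. Treatments of unlisted miRNAs could move neither, since all 3 members are listed for both ploidies. The nearest 5 courses were the same miRNAs with log2(value + 10). They were the same with equal sums too, but that outcome was nearly fixed in advance. A factor per library moves all courses alike, apart from the 1 added before the logarithm. Depth limits the PMA values most, where a member rests on 9 to 39 reads.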
